A study of Mus musculus with 6 samples.

Results

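Histamine receptors, the Gq-class alpha subunits and the phospholipase C beta enzymes make up a short signalling chain, and 10 of its genes were followed in dorsal root ganglia (DRGs) of control mice and of mice that lack Tlx3 in nociceptors. The 10 genes were chosen by symbol, as the rows of the deposited count table whose Ensembl mouse gene identifier maps to Hrh1, Hrh2, Hrh3, Gnaq, Gna11, Gna14, Plcb1, Plcb2, Plcb3 or Plcb4. They are 10 of 47937 rows in the table and 10 of the 20006 genes with enough counts to be tested. All 10 passed that filter, a sum of at least 10 counts across all 6 libraries.

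The data are 6 libraries of total RNA from cervical, thoracic and lumbar DRGs, 3 from control and 3 from mutant mice, all on the C57BL/6 strain and about 2 months old. The control mice are labelled wild type. The mutants are Tlx3f/f;SNS-cre, named Tlx3cko in the study and below. In them a Cre recombinase under the promoter of the sodium channel Nav1.8, which is active in nociceptive neurons from late embryonic life, deletes a floxed allele of the transcription factor gene Tlx3. The deletion is therefore limited to part of the neurons of the ganglion, and the label of the controls names neither a floxed allele nor Cre. Nothing in the labels ties a library to more than 1 mouse or to a separate day, and p-values measure the spread between these 6 libraries.

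Library totals ranged from 11458299 to 18775628 counts. The targeted gene Tlx3 was counted 1828, 2262 and 2433 times in control against 1717, 1052 and 1475 times in Tlx3cko libraries, a log2 fold change of -0.46 (edgeR adjusted p = 0.0122) whose call was lost in 4 of 15 alternative fits. Which exons of Tlx3 are floxed is not given in the sources used here, so reads outside the deleted stretch cannot be separated out. The X-inactivation gene Xist was counted 591 and 493 times in control replicates 1 and 2, which had 0 counts on the Y-linked gene Ddx3y. The remaining 4 libraries, control replicate 3 included, held 0 to 2 counts of Xist and 273 to 525 of Ddx3y, and sex was therefore unbalanced between genotypes. All 10 markers of sensory neurons on the list used were counted, and their summed level was 207533 to 218799 normalized counts in control against 222506 to 237258 in Tlx3cko libraries. Of these 10, 2 were higher and 0 lower at an adjusted p under 0.05, both named after their values were seen. They were Scn10a, the gene of Nav1.8, at 134.9% and Nefh at 128.1% of the control mean (edgeR adjusted p = 0.00281 and 0.00532). The call for Scn10a stood in all 15 alternative fits, and that for Nefh was lost in 1. Scn10a, which is part of the summed level, is also the gene whose promoter drives Cre in the mutants. Whether the Cre construct affects its counts was not tested. In bulk RNA, fewer cells of a type and less RNA per cell cannot be told apart.

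Histamine is released mainly by mast cells and acts on a family of G protein-coupled receptors. The H1 receptor (Hrh1) couples to Gq-class alpha subunits, the H2 receptor (Hrh2) to Gs, and the H3 and H4 receptors (Hrh3, Hrh4) to Gi. A Gq-class alpha subunit loaded with GTP switches on phospholipase C beta, which splits a membrane phosphoinositide into inositol trisphosphate, which frees calcium from stores, and diacylglycerol, which activates protein kinase C. In itch-sensing neurons of the DRG this chain carries histamine responses, with phospholipase C beta 3 as a known component and TRPV1 among the channels that respond.

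The genes that passed an adjusted p under 0.05 encode a receptor and enzymes, and the alpha subunit gene Gna14 lay just above it (edgeR adjusted p = 0.0506). Hrh1 and Plcb3 fell and Plcb1 rose in Tlx3cko DRGs at an adjusted p under 0.05, while the other 7 genes, among them every alpha subunit, did not pass this threshold. That is 2 of 10 genes lower and 1 of 10 higher, where 2.56% of all genes tested were lower and 1.69% higher past the same threshold, 4.25% in either direction. Hrh1 and Plcb3 belong to the genes that the study presented as itch-related from these same libraries, so their direction here is not independent evidence. In 6 of the 10 genes the control and Tlx3cko values did not overlap, against 19.7% of all genes tested, and 3 of these 6 (Hrh3, Gna14 and Plcb4) did not pass the threshold.

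**Figure D1:**
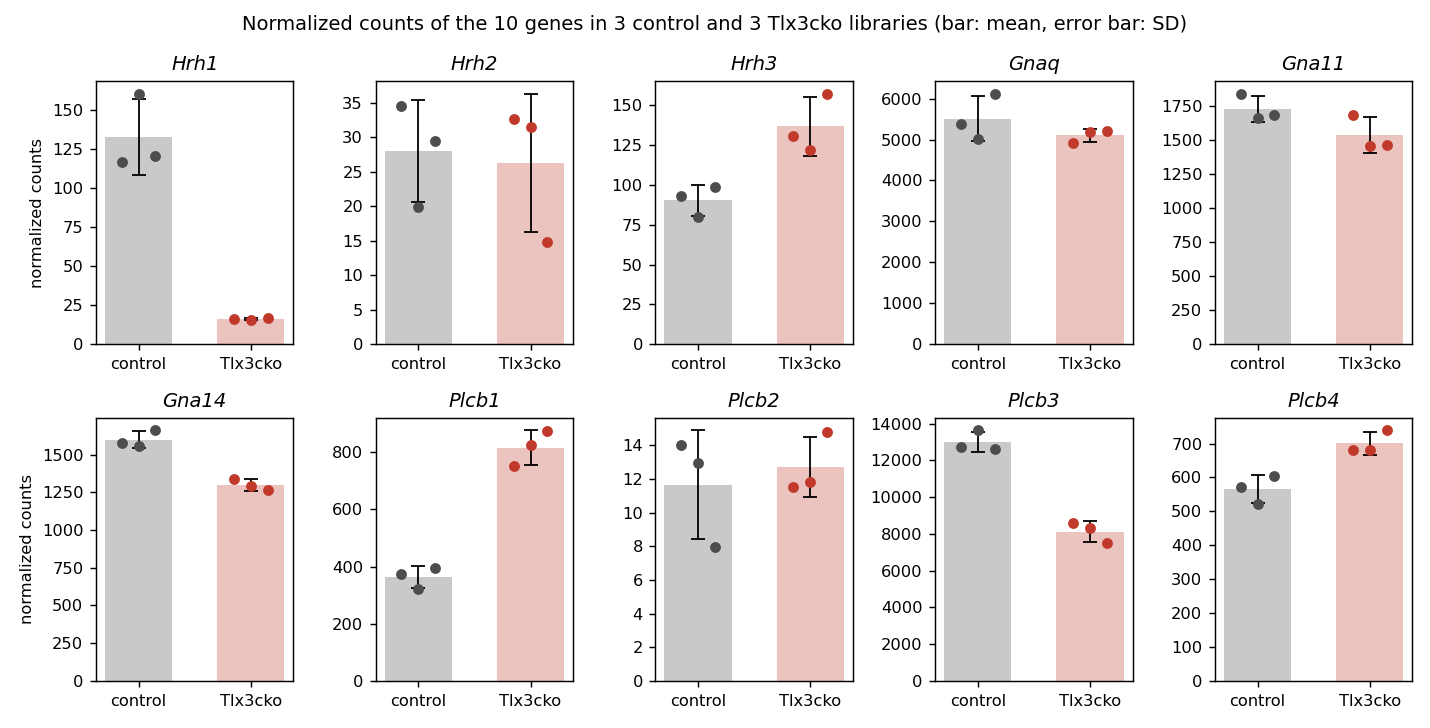
Normalized counts of each gene (y axis, counts scaled for library size) in the 3 control and 3 Tlx3cko libraries, with points for libraries, bars for means and error bars for SD. Hrh1 and Plcb3 stand lower and Plcb1 stands higher in every Tlx3cko library than in any control library.

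Hrh1, the receptor that starts the Gq branch, lies on the plus strand of chromosome 6 (GRCm38, chr6:114397936-114483296, ENSMUSG00000053004). The 250 bases before its most upstream RefSeq start are shown because the RNA of this gene fell most among the 10, and the 250 bases before the RefSeq start listed for Plcb3, on the minus strand of chromosome 19, are shown beside them. The annotated Plcb3 gene begins further upstream, so that this stretch lies within the span of the gene. Positions are chr6:114397686-114397935 for Hrh1 and chr19:6969815-6970064 for Plcb3 in the RefSeq promoter table (GRCm38.p6), both written 5′ to 3′ along the gene. Capitals mark the GC box letters GGGCGG found on either strand.
Hrh1: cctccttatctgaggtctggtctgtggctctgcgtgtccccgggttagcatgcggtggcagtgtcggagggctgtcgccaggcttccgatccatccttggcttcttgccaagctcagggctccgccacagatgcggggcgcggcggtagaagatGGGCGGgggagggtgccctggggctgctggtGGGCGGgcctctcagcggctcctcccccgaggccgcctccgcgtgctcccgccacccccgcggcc
Plcb3: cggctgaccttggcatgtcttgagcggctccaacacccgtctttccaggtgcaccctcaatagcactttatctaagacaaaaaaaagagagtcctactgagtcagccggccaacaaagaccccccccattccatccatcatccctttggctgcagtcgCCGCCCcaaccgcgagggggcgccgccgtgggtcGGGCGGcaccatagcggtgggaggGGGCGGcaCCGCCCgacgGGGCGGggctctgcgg
The Hrh1 stretch held 2 GC boxes and the Plcb3 stretch held 5. These letters were found on either strand in 32.742% of all 32851 RefSeq windows, each searched over the 250 bases before its start. The letters CCAAT were searched in the same way and occur in 33.85% of all windows. The TATA box letters TATAAA occur in 12.368% of them. The homeodomain core letters TAATTA occur in 4.84% of them. None of these last 3 motifs was found in the printed Hrh1 and Plcb3 stretches, nor in the 250 bases before the Plcb1 start. The Hrh1 stretch had 71.2% G and C and the Plcb3 stretch 64.4%, against a median of 52.4% over all windows. Further Hrh1 windows, beginning at chr6:114397836, chr6:114403416 and chr6:114458272, had 78.4%, 49.6% and 51.2% G and C. They held 4, 0 and 0 GC boxes, and which start is used in DRGs was not tested. The Plcb1 window had 1 GC box and is not printed, because part of it lies in an exon of another annotated transcript. Such matches describe the letters of the windows and were not set against any measure of binding.

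Hrh1 was counted 108, 161 and 151 times in control against 17, 12 and 17 times in Tlx3cko libraries. Every Tlx3cko library stood far below the lowest control library, and no values overlapped. Scaled for library size, this was 132.5 ± 24.4 normalized counts (SD, n = 3) in control against 16.3 ± 0.497 (SD, n = 3) in Tlx3cko DRGs, or 12.3% of the control mean. Its log2 fold change was -3.01 (standard error 0.256, 95% interval -3.57 to -2.46, edgeR adjusted p = 1.79e-05). Of the 10 genes it showed the largest fold change in this comparison.

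Hrh2, whose receptor raises cyclic AMP, was counted 32, 20 and 37 times in control against 34, 24 and 15 times in Tlx3cko libraries. The values overlapped widely, and at 15 to 37 counts a library the estimate was broad. Its log2 fold change was -0.10 with a 95% interval from -0.96 to 0.77 (edgeR adjusted p = 0.953), so neither a loss nor a gain within that interval could be detected at this depth. Hrh3, whose Gi-coupled receptor limits transmitter release, was counted 86, 80 and 124 times in control against 136, 93 and 160 times in Tlx3cko libraries. After scaling, its values were 90.5 ± 9.77 normalized counts (SD, n = 3) in control against 136.8 ± 18.4 (SD, n = 3) in Tlx3cko DRGs, and every Tlx3cko library was above every control library. At 0.60, the log2 fold change (standard error 0.191, 95% interval 0.18 to 1.01) did not pass the threshold (edgeR adjusted p = 0.122). Of the annotated exonic bases of Hrh3, 11.1% are shared with Gm17180 on the opposite strand, and of those of Hrh2, 2.44% with Gm16578. Whether the counting used strand is not given in the sources used here, and reads from those bases could come from either gene. Hrh4 had 0 counts in each of the 6 libraries, which allows up to 3 counts in each for counting error alone, and it was not tested.

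Gnaq, Gna11 and Gna14 encode the Gq-class alpha subunits that hand the signal from the receptor to the enzyme. Gnaq (chr19:16132831-16387463) and Gna14 (chr19:16435762-16610820) follow each other on the plus strand of chromosome 19. Gnaq was counted 4994, 5037 and 7675 times in control against 5111, 3944 and 5302 times in Tlx3cko libraries. After scaling the groups overlapped, at 5512 ± 559 and 5104 ± 162 normalized counts (SD, n = 3 each). The log2 fold change of Gnaq was -0.11, with a 95% interval from -0.29 to 0.07 (edgeR adjusted p = 0.624), an interval from 0.819 to 1.05 times the control level. Gna11 was counted 1709, 1668 and 2113 times in control against 1755, 1112 and 1487 times in Tlx3cko libraries. Its scaled values overlapped too, with a log2 fold change of -0.17 and a 95% interval from -0.36 to 0.02 (edgeR adjusted p = 0.414).

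Gna14, the least widely used of the 3 subunits across tissues, was counted 1459, 1562 and 2083 times in control against 1393, 984 and 1287 times in Tlx3cko libraries. Its scaled values were 1598 ± 55.6 (SD, n = 3) in control against 1299 ± 37.7 (SD, n = 3) in Tlx3cko DRGs, with every Tlx3cko library below every control library. The log2 fold change was -0.30 (standard error 0.0782, 95% interval -0.47 to -0.13), and the adjusted p of 0.0506 from edgeR lay just above the threshold. It passed in 5 of 15 alternative fits, and the adjusted p over all 15, edgeR, DESeq2 and limma-voom together, ranged from 0.0239 to 0.224, so the call for Gna14 depends on the test, the scaling and the filter. Gna15, the remaining Gq-class gene, known from blood cells, had 0 to 7 counts a library and a log2 fold change of -0.65 with a 95% interval from -2.85 to 1.55 (edgeR adjusted p = 0.857).

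**Figure D2:**
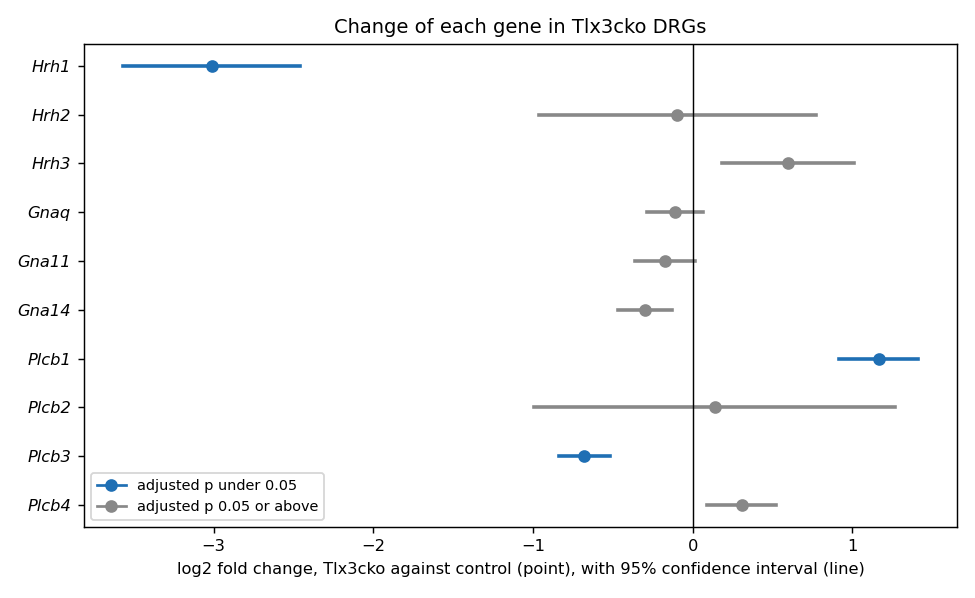
Log2 fold change of each gene in Tlx3cko against control DRGs (point) with its 95% confidence interval (line), from the fit over all genes tested. Hrh1, Plcb3 and Plcb1 are coloured as past the threshold at -3.01, -0.68 and 1.17, and the intervals of Hrh2 and Plcb2 are the widest.

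The phospholipase C beta genes moved in both directions. Plcb3 (chr19:6952325-6976470, minus strand, ENSMUSG00000024960) was counted 11812, 13679 and 15825 times in control against 8913, 6323 and 7634 times in Tlx3cko libraries. After scaling, this was 13005 ± 556 normalized counts (SD, n = 3) in control against 8129 ± 552 (SD, n = 3) in Tlx3cko DRGs, or 62.5% of the control mean, and the groups lay well apart. The log2 fold change was -0.68 (standard error 0.0732, 95% interval -0.84 to -0.52, edgeR adjusted p = 0.000118).

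Plcb1 (chr2:134786067-135475258, plus strand, ENSMUSG00000051177), an isoform best known from the brain, was counted 348, 321 and 495 times in control against 781, 628 and 887 times in Tlx3cko libraries. All 3 Tlx3cko libraries were above all 3 control libraries in raw as well as scaled counts. Its scaled values were 363.5 ± 38.8 (SD, n = 3) in control against 816.2 ± 61.0 (SD, n = 3) in Tlx3cko DRGs, or 224.5% of the control mean. The fold change was 1.17 on the log2 scale (standard error 0.114, 95% interval 0.92 to 1.41, edgeR adjusted p = 5.20e-05). Of its exonic bases, 1.6% are shared with 9630028H03Rik on the opposite strand.

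Plcb4 (chr2:135659011-136014593), which follows Plcb1 on the same strand of chromosome 2 and is known from the retina and the cerebellum, was counted 531, 522 and 756 times in control against 706, 520 and 751 times in Tlx3cko libraries. Scaled values were 565.6 ± 41.7 (SD, n = 3) and 700.3 ± 33.6 (SD, n = 3), with every Tlx3cko library above every control library. At 0.31, the log2 fold change (standard error 0.101, 95% interval 0.09 to 0.53) missed the threshold (edgeR adjusted p = 0.131). Plcb2, the isoform of blood cells and taste cells, was counted 13, 13 and 10 times in control against 12, 9 and 15 times in Tlx3cko libraries. The groups overlapped, and the estimate of 0.14 (log2) carried a 95% interval from -0.99 to 1.27 (edgeR adjusted p = 0.946).

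The calls for Hrh1, Plcb3 and Plcb1 stood in all 15 alternative fits. The highest adjusted p for each came from a fit with a term for libraries with counts on the Y chromosome, in which control replicate 3 alone stands against the 3 Tlx3cko libraries and is assumed to vary as the other libraries do. There the log2 fold changes were -2.88 for Hrh1, -0.63 for Plcb3 and 1.05 for Plcb1, with edgeR adjusted p of 0.000459, 0.00413 and 0.00446.

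Levels of different genes were compared as counts in every 1000000 counts of the library (CPM) per kilobase of annotated exons, and on this scale Plcb3 had the highest level of the 10 genes in both groups. In control DRGs it stood at 125.1 ± 5.17 CPM per kilobase (SD, n = 3), followed by Gnaq at 59.7 ± 5.98, Gna14 at 31.2 ± 1.03 and Gna11 at 28.3 ± 1.75. Gna14 and Gna11 overlapped between libraries and could not be ordered. Plcb4 came next at 4.22 ± 0.313, and then Plcb1 at 2.19 ± 0.235, Hrh1 at 1.99 ± 0.362 and Hrh3 at 1.93 ± 0.209, of which each overlapped its neighbour. Hrh2 at 0.316 ± 0.0848 and Plcb2 at 0.118 ± 0.0332 were the lowest.

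In Tlx3cko DRGs the upper places were held in the same order, with Plcb3 at 77.8 ± 5.53 CPM per kilobase (SD, n = 3), Gnaq at 55.0 ± 1.54, and Gna14 and Gna11 overlapping at 25.2 ± 0.829 and 24.99 ± 2.24. Plcb1 reached 4.89 ± 0.348 and overlapped Plcb4 at 5.20 ± 0.236, from which it had been separate in control DRGs. Hrh3 stood at 2.90 ± 0.384 and was the highest of the receptors in every Tlx3cko library. Hrh1 went to 0.244 ± 0.00741, next to the last place, and overlapped Hrh2 at 0.296 ± 0.113. Plcb2 stayed lowest at 0.128 ± 0.0176.

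**Figure D3:**
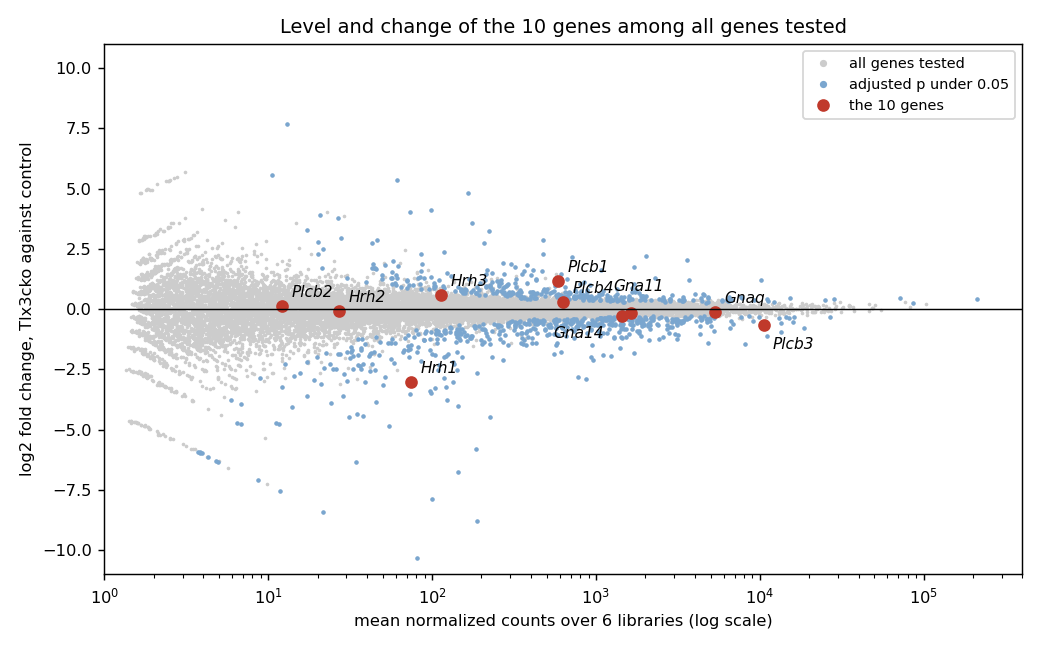
Mean normalized counts over the 6 libraries (x axis, log scale) against the log2 fold change (y axis) for all genes tested in grey, those past the threshold in blue and the 10 genes in red. Plcb3 is the most counted of the 10 and Plcb2 the least, and Hrh1 lies far below the grey band at its level.

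The share of each gene in its family does not depend on how libraries are scaled. Hrh1 made up 47.8%, 61.7% and 48.4% of the histamine receptor counts in control against 9.09%, 9.30% and 8.85% in Tlx3cko libraries. Hrh3 made up 38.1%, 30.7% and 39.7% in control against 72.7%, 72.1% and 83.3% in Tlx3cko libraries. In raw counts the receptors were thus led by Hrh1 in control and by Hrh3 in Tlx3cko DRGs. Mean shares were 52.6 ± 7.85% against 9.08 ± 0.224% for Hrh1 and 36.1 ± 4.84% against 76.1 ± 6.31% for Hrh3 (SD, n = 3 each). The lead in control DRGs depended on the unit. When counts were first divided by exon length, control shares were 42.58%, 55.68% and 42.64% for Hrh1. Those of Hrh3 were 47.96%, 39.13% and 49.53%, so that Hrh3 led in control replicates 1 and 3. Hrh3 led in every Tlx3cko library in both units. A share of 1 gene rises when another falls, and the fold change of Hrh3 itself did not pass the threshold. The summed receptor counts, scaled for library size, were 251.0 ± 8.40 in control against 179.4 ± 9.85 in Tlx3cko DRGs (SD, n = 3 each).

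Plcb3 made up 93.0%, 94.1% and 92.6% of the phospholipase C beta counts in control against 85.6%, 84.5% and 82.2% in Tlx3cko libraries. The difference was -9.12 percentage points in counts and -6.68 percentage points when counts were first divided by exon length. Plcb1 went from 2.61 ± 0.361% to 8.48 ± 1.03% and Plcb4 from 4.07 ± 0.428% to 7.27 ± 0.710% (SD, n = 3 each). Plcb3 therefore still supplied most of the family counts in every library. The ratio of Plcb3 to Plcb1 counts was 33.9, 42.6 and 32.0 in control against 11.4, 10.1 and 8.61 in Tlx3cko libraries. Here too a share of 1 gene rises when another falls, and the fold change of Plcb4 itself did not pass the threshold. The summed family counts, scaled for library size, were 13946 ± 479 in control against 9659 ± 461 in Tlx3cko DRGs (SD, n = 3 each). The differences in mean counts of Plcb1 and Plcb4 were thus together smaller than that of Plcb3.

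Within the alpha subunits no mean share moved by more than 2.02 percentage points. Gnaq supplied 62.3 ± 2.08% of the counts in control and 64.3 ± 2.08% in Tlx3cko DRGs, with overlap between libraries. Gna14 supplied 18.1 ± 0.703% and 16.4 ± 0.469%, without overlap (SD, n = 3 each). In an exact two-sided permutation test the shares of Hrh1, Hrh3, Gna14 and the 4 phospholipase C beta genes each gave p = 0.1, or 0.143 after adjustment over the 10 shares tested. This is the smallest p that 3 libraries against 3 can give, so no share could reach 0.05. Gnaq gave p = 0.2, Hrh2 p = 0.4 and Gna11 p = 1 in the same exact test.

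**Figure D4:**
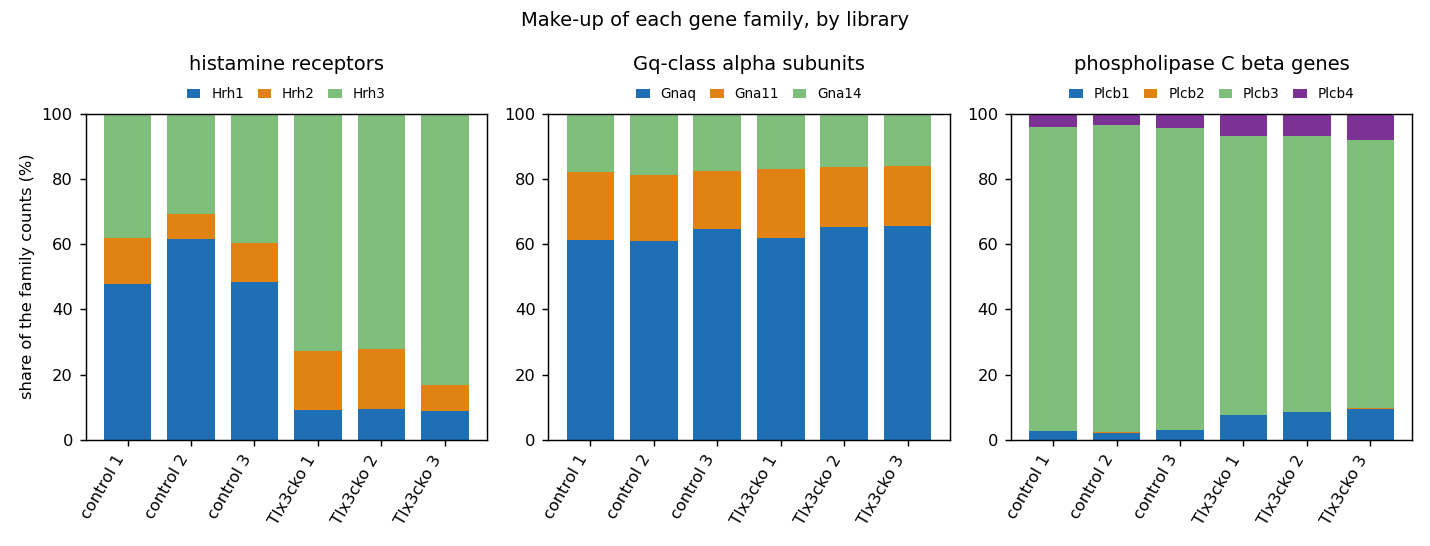
Stacked bars of the share of each gene (y axis, percent of the family counts) in each of the 6 libraries, for histamine receptors, Gq-class alpha subunits and phospholipase C beta genes. The Hrh1 share is 47.8% to 61.7% in control and 8.85% to 9.30% in Tlx3cko libraries, while the mean shares of the alpha subunits differ by at most 2.02 percentage points.

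By the distance between centred log2 CPM over the 6 libraries, the genes nearest to Hrh1 among 13365 searched were Th, the rate-limiting enzyme of catecholamine synthesis, Cyp4f39, a fatty acid hydroxylase, and Pde4c, a cyclic AMP phosphodiesterase. Their root mean square distances were 0.224, 0.237 and 0.258 on the log2 scale. Th was counted 902, 1964 and 2079 times in control against 226, 150 and 198 times in Tlx3cko libraries. Nearest to Plcb1 were Nyap2, a neuronal adaptor protein (0.0667), Oprl1, the nociceptin receptor (0.0684), and Ina, the neurofilament protein alpha-internexin (0.112). Nearest to Plcb3 were Cdk20, a cyclin-dependent kinase (0.0442), Slc29a1, an equilibrative nucleoside transporter (0.0498), and Kcnn1, a calcium-activated potassium channel (0.0545). These genes were picked for their likeness over the same libraries, so the distances are a description only.

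Around the 10 genes, 132 genes of 10 lists that cover the steps before, beside and after them could be tested. Past the threshold, 22 were lower and 7 were higher in Tlx3cko DRGs, together 22.0% where 4.25% of all genes tested passed, and the median log2 fold change of the 132 was -0.05, where all genes tested had a median of -0.00365. Several of the lower genes encode receptors that the study presented as itch-related from these libraries.

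Before the receptor, 1 of 5 tested genes for histamine synthesis, breakdown and transport was higher and 0 were lower. Slc29a4, a plasma membrane transporter of monoamines that also carries histamine, rose from 961.1 ± 161 to 1720 ± 144 normalized counts (SD, n = 3 in each group, log2 fold change 0.84, edgeR adjusted p = 0.000925). Hdc, the enzyme that makes histamine, stood at 35.1 ± 16.6 normalized counts in control against 22.1 ± 14.5 in Tlx3cko DRGs (SD, n = 3 each), and its groups overlapped (edgeR adjusted p = 0.638).

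At the level of the alpha subunits and the enzyme, 4 of 13 regulators and other effectors of Gq were lower and 0 higher. Rgs8 and Rgs4, which speed up GTP hydrolysis by alpha subunits, fell to 22.8% and 51.1% of their control means (edgeR adjusted p = 1.29e-05 and 0.000112), and the receptor kinases Grk3 and Grk2 fell by 0.66 and 0.37 on the log2 scale, each with a call lost in 2 of 15 alternative fits (Grk2 was named after its values were seen). Of 10 other phospholipase C genes, 2 were higher and 0 lower, both of the eta class. Plch2 was counted 154, 71 and 135 times in control against 399, 331 and 477 times in Tlx3cko libraries (log2 fold change 1.91, edgeR adjusted p = 0.000278). Plch1, under the level for naming and picked out after its values were seen, was counted 7, 12 and 17 times in control against 66, 52 and 93 times in Tlx3cko libraries. Of 9 scaffold genes for phospholipase C beta, 0 passed the threshold.

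After the enzyme, Cds2, a CDP-diacylglycerol synthase, was the 1 lower gene of 12 for the supply of the substrate, at 69.5% of its control mean (edgeR adjusted p = 0.000405). Of 10 genes for inositol trisphosphate, 1 was higher, the receptor Itpr3, a call lost in 7 of 15 alternative fits. Of 13 genes for diacylglycerol metabolism, 2 were lower, the kinases Dgkz, at 67.2% of its control mean, and Dgkk, which lies under the level for naming, was picked out after its values were seen and lost its call in 7 of 15. Protein kinases C and D, which diacylglycerol activates, had 3 of 10 genes lower and 0 higher, namely Prkcq (theta) at 14.0%, Prkcd (delta) at 52.9% and Prkca (alpha) at 75.8% of their control means, the last with a call lost in 2 of 15.

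Among channels that act after Gq receptors, Trpc6, a channel that diacylglycerol opens, fell to 37.0% of its control mean (edgeR adjusted p = 0.000184). Trpv1, the capsaicin and heat channel, rose to 231.1% of its control mean, or by 1.21 on the log2 scale (standard error 0.0991, edgeR adjusted p = 1.37e-05). Trpm8, the cold channel, and the potassium channel gene Kcnq3 passed at -0.44 and 0.38, but lost their calls in 8 and 6 of 15 alternative fits.

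Beside Hrh1, 39 other Gq-coupled receptor genes were tested, of which 9 were lower and 1 was higher. Mrgpra3, the chloroquine receptor, fell to 6.04%, Cysltr2, a leukotriene receptor, to 9.08% and Lpar5, a lysophosphatidic acid receptor, to 14.3% of the control mean (edgeR adjusted p = 1.47e-05, 0.000691 and 0.00268). The other 6 lower genes were Lpar3, Mrgprd, F2rl1, Agtr1a, P2ry1 and Cckar, named after their values were seen. The calls for Lpar3 and Mrgprd stood in 15 of 15 alternative fits, whereas Agtr1a and P2ry1 each lost theirs in 5, Cckar in 2 and F2rl1 in 7 of the 14 that kept it. F2rl1 was counted 30, 18 and 2 times in control and 0 times in each Tlx3cko library, and the lowest control value is that of control replicate 3. Ptger1, a prostaglandin E2 receptor, was higher, a call lost in 5 of 15 alternative fits.

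**Figure D5:**
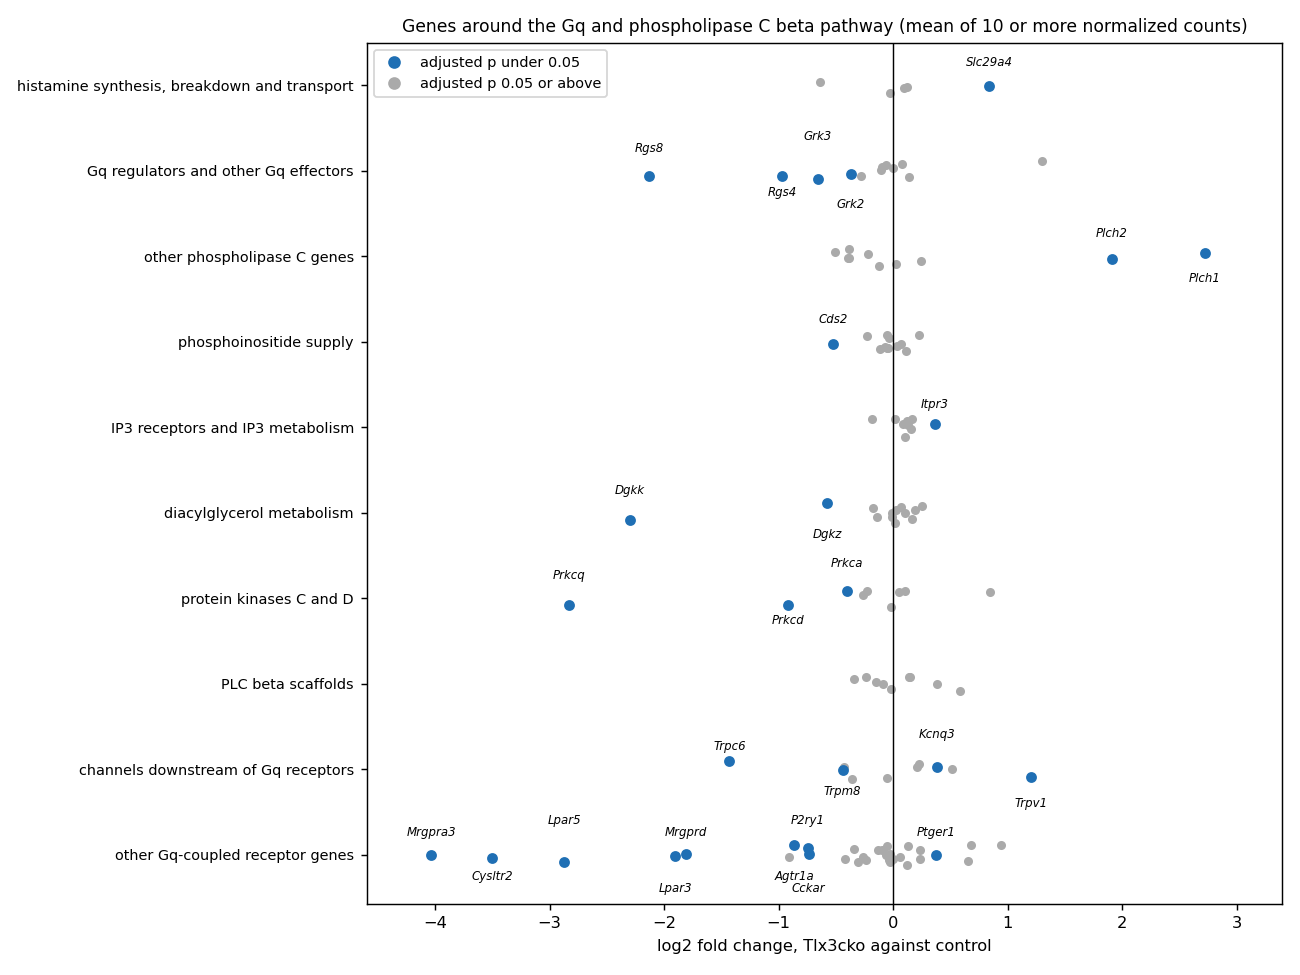
Log2 fold change in Tlx3cko against control DRGs (x axis) of the genes of 10 lists (rows) whose mean reached 10 normalized counts, in blue when the adjusted p was under 0.05. The receptors Mrgpra3, Cysltr2 and Lpar5 and the kinase Prkcq lie farthest left at -4.04, -3.50, -2.87 and -2.83, and Plch1 lies farthest right at 2.72.

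Marker lists of other cell types also differed between the genotypes. Of 12 markers of non-peptidergic neurons, the class that carries most receptors for itch-inducing substances, 10 were lower and 0 higher, and their summed level was 14806 to 18289 normalized counts in control against 7410 to 8290 in Tlx3cko libraries. This list overlaps the genes that the study presented from these libraries. Endothelial markers, from cells that also carry the H1 receptor, summed to 881 to 1058 in control and 1183 to 1272 in Tlx3cko libraries, with 1 of 6 higher, Pecam1, a call lost in 4 of 15 alternative fits. Mast cell markers summed to 1130 to 1225 in control and 846 to 976 in Tlx3cko libraries, with 0 of 5 past the threshold. Nearly all of that sum was Kit, a receptor that sensory neurons also carry, at 1124 ± 77.4 normalized counts in control against 879.2 ± 70.7 in Tlx3cko DRGs (SD, n = 3 each, edgeR adjusted p = 0.0571). Cpa3, Cma1, Tpsb2 and Mcpt4, the members restricted to mast cells, had 0 to 32 counts a library. All 5 tested mast cell markers had a negative log2 fold change and 0 a positive one. Tpsb2, picked out after its values were seen, was counted 24, 29 and 30 times in control against 8, 10 and 0 times in Tlx3cko libraries. Its groups did not overlap (edgeR adjusted p = 0.177).

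Markers of skeletal muscle summed to 102 to 1567 in control and 1323 to 2785 in Tlx3cko libraries, with 1 of 5 higher. That gene, Myh4, lost its call in 2 of 15 alternative fits. Satellite glia and Schwann cell markers each had 1 of 6 higher, Cadm2 and Egr2, each with a call lost in 5 of 15. Their sums overlapped between the groups, as did those of leukocytes, smooth muscle and blood with 0 past the threshold. No gene on any marker list was at 0 in all 6 libraries. This includes Fcer1a, the 1 of 6 mast cell markers with too few counts to be tested. The part of these cell types in the values of Hrh1, Plcb3 and Plcb1 was not tested.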

How the data were processed

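RNA of DRGs from 3 control and 3 Tlx3cko mice had been sequenced as paired ends on an Illumina HiSeq instrument. The authors deposited raw read counts per gene for the 6 libraries, without normalization. Their processing notes name STAR 2.5.2a and the build mm10; the counting program, the annotation and the use of strand are not given in the sources used here. Of 47937 rows, 47729 have Ensembl mouse gene identifiers and 208 do not. A symbol was matched to 47224 rows, from a list of gene names or else from GENCODE M21 (GRCm38). Samples were grouped by their titles.

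Genes with at least 10 counts in total (20006) were scaled by TMM and tested with edgeR 4.0.16 (glmQLFit and glmQLFTest, R 4.3.3), with Benjamini-Hochberg adjustment over all of them and a threshold of 0.05. Every adjusted p in the text is from this test unless another is named. Normalized counts are counts divided by the effective library size and multiplied by its mean, 14970767. TMM factors lay between 0.994 and 1.01, and totals between 11458299 and 18775628. Replicates differed by more than sampling noise (chi-square per degree of freedom 4.32 to 10.1). Levels per kilobase are counts in every 1000000 counts of the library, divided by the length of the union of GENCODE exons. Promoter sequences are from RefSeq (GRCm38.p6), where all 10 genes matched, with 15 windows. Near-identical stretches (at least 100 bases at 98% identity, blastn 2.17.0+) were found for Hrh2, Hrh3 and Plcb1, each with an overlapping gene on the opposite strand.

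Alternatives were DESeq2 1.42.0, limma-voom (limma 3.58.1), other scalings and filters, a replicate block, a term for Y-linked counts and each library left out. The method was also run on counts simulated from its own fitted model, with changes set only in genes with higher counts. That run cannot speak to the sex imbalance or to genes with few counts. Genes named are the 10 genes, Hrh4, Gna15, Tlx3, Hdc and Trpv1, at most 3 falls and 3 rises past the threshold per list whose mean reached 50 normalized counts, and the 3 genes nearest in pattern to each of Hrh1, Plcb1 and Plcb3. The 10 genes and all lists were chosen with earlier results of these data known. Alternatives for the lists and for genes outside the 10 were added after seeing the data. A result covered by the rule above is not reported here and is left out of the plot of the lists.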

Additional observations from a re-analysis of the deposited data

How the results depend on the processing

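Hrh1, Plcb3 and Plcb1 kept their direction and their side of the threshold in all 15 alternatives, and 2 of the 10 genes were lower and 1 higher in each, except that Gna14 made a further lower gene in 5 of them. Genes past the threshold over the whole table went from 851 to 1529 without a filter on low counts and to 487 with the term for Y-linked counts, and ranged from 488 to 938 when each library was left out, with 530 without control replicate 2, 488 without Tlx3cko replicate 2 and 512 without Tlx3cko replicate 3. The cause of these shifts was not tested, and the fits with a library left out also rest on fewer libraries. List genes higher past the threshold went from 7 to 4 with the term for Y-linked counts and ranged from 4 to 9 with a library left out, at 4 when control replicate 3 or either of Tlx3cko replicates 2 and 3 was the one left out. The lower ones ranged from 15 to 25. The Plcb3 share difference moved from -9.12 to -6.68 percentage points per kilobase of exons. Hrh2 ranged from -0.30 to 0.20 (log2) with a library left out, turning positive without control replicate 1 (0.07) or Tlx3cko replicate 3 (0.20), and Plcb2 ranged from -0.082 to 0.289, turning negative without control replicate 3. With the term for Y-linked counts Gna15 turned to 0.90 and Hdc to 0.0077. At 9 to 37 counts a library, depth limits what can be seen of Hrh2 and Plcb2.

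The replicate numbers 1 to 3 are shared by the groups but carry no stated pairing, and the deviations of same-numbered libraries correlated at -0.13, -0.02 and -0.11. With the number as a block, 770 genes passed, with 2 of the 10 genes lower and 1 higher and 20 list genes lower and 6 higher. The log2 fold changes were -2.99 for Hrh1, -0.68 for Plcb3 and 1.17 for Plcb1.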
